A study of Mus musculus with 17 samples.

Results

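The hippocampi of 3 C57BL/6J mice aged 29 months (29M) were compared with those of 3 mice aged 3 months (3M) by paired-end sequencing of polyadenylated RNA. All 6 mice were wild-type and untreated. These 6 libraries were taken from the 17 of the whole series because their labels give this age and library type. The other 11 were single-end libraries of 24M mice and of another 3M group. The results below run across all genes and, apart from C4b, leave the complement system to one side. Per the study's methods, mice of this advanced age were bought at 24 months and then kept on in the laboratory. The labels describe each library as a separate sample, and the p-values measure the spread between these samples.

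The hippocampus holds the excitatory neurons of the dentate gyrus and the CA fields, inhibitory interneurons, astrocytes, oligodendrocytes and microglia. Microglia are the resident macrophages of the brain, and astrocytes respond to damage by raising intermediate filament proteins. Interferons are signals of antiviral defence that act through STAT and IRF transcription factors and raise a large set of target genes, MHC class I genes among them.

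The libraries held 10977976 to 15054972 gene counts, with 20411 to 21028 genes detected in each. The tissue carried the markers of hippocampus in both groups: Prox1, the granule cell transcription factor, lay between 124.7 and 138.1 CPM (counts scaled to the effective library size) in the 6 libraries, and Slc17a7, the vesicular glutamate transporter of excitatory neurons, between 1291 and 1426 CPM. Of the markers of CA1, Fibcd1 overlapped between the ages. Wfs1 did not, at 153 to 177 CPM at 3M and 130 to 144 CPM at 29M. Y-linked Ddx3y lay between 62.6 and 72.8 CPM and Xist at or below 0.252 CPM in all 6. Libraries stood apart in some ways. 29M replicate 1 carried pituitary hormone transcripts, with Gh at 344 CPM, Prl at 8.50 CPM and Cga at 7.15 CPM, against at most 0.218 CPM for any of these genes in the other 5 libraries. 3M replicate 1 and 29M replicate 2 were high in Gm42418 and Lars2, annotated genes known to collect reads of ribosomal RNA repeats: Gm42418 stood at 24554.5 and 48002 CPM in these libraries and at 918 to 2290 CPM in the other 4. The share of reads on no annotated gene was highest, at 15.87%, in 29M replicate 2, and between 11.45% and 12.82% in the rest. Genes of the thalamus and habenula, which lie beside the hippocampus, summed to 234 CPM in 3M replicate 2 and to 124 to 147 CPM in the other 5 libraries. Transcripts of the choroid plexus, which borders the hippocampus, overlapped between ages, with Ttr at 3164 to 5816 CPM at 3M and 3770 to 5822 CPM at 29M.

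**Figure D1:**
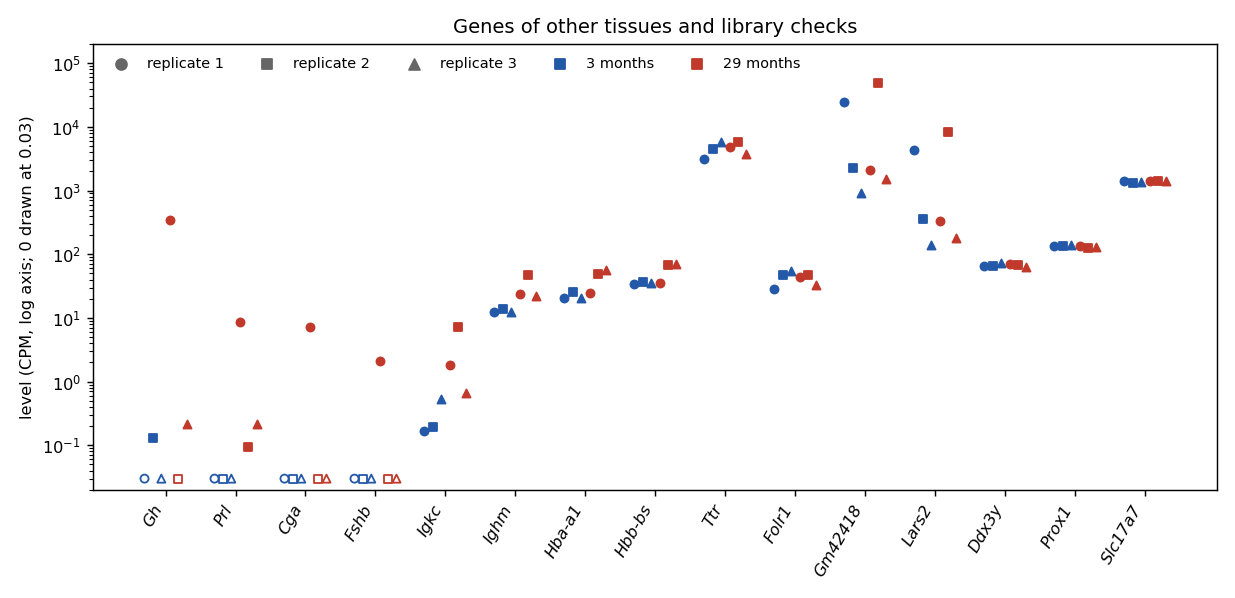
Level in CPM (log axis) of 15 genes in each library, 3M in blue and 29M in red, with the marker shape giving the replicate and open markers for a count of 0. Gh, Prl, Cga and Fshb are high in 29M replicate 1, Gm42418 and Lars2 are high in 3M replicate 1 and 29M replicate 2, and Prox1 and Slc17a7 lie close together in the 6 libraries.

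At 29M, 202 genes were higher and 17 lower than at 3M, which is 1.34% and 0.113%, together 1.45%, of the 15097 genes tested (edgeR's quasi-likelihood test, adjusted p of at most 0.05 and a log2 fold change of at least 0.5 in size). These genes are called higher or lower in what follows. The median log2 fold change of all tested genes was -0.0021, and 17.3% of them had an unadjusted p under 0.05. The higher genes had a median change of 0.86 on the log2 scale and 77 of them changed more than 2-fold. Of the lower genes, 3 did so. In 218 of the 219 called genes, all but Hba-a1, every 29M library lay on 1 side of every 3M library, while 11.9% of all tested genes had every 29M library above every 3M library and 10.5% had every one below. The genes were called from these same values, so this separation is no separate support for the calls. By biotype, 201 of the called genes were protein-coding and 7 were long intergenic noncoding RNAs. With 29M replicate 3 left out 113 genes were higher, with 29M replicate 1 left out 118, and with 29M replicate 2 left out 207. The count of lower genes fell to 7 when 29M replicate 1 was left out, to 9 for 3M replicate 3 and to 11 for 29M replicate 3, and stood at 27 for 3M replicate 2. In every one of the 6 fits that left out 1 library, 93 of the higher and 4 of the lower genes were called again. With both libraries high in Gm42418 left out together, 169 genes were higher and 15 lower.

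**Figure D2:**
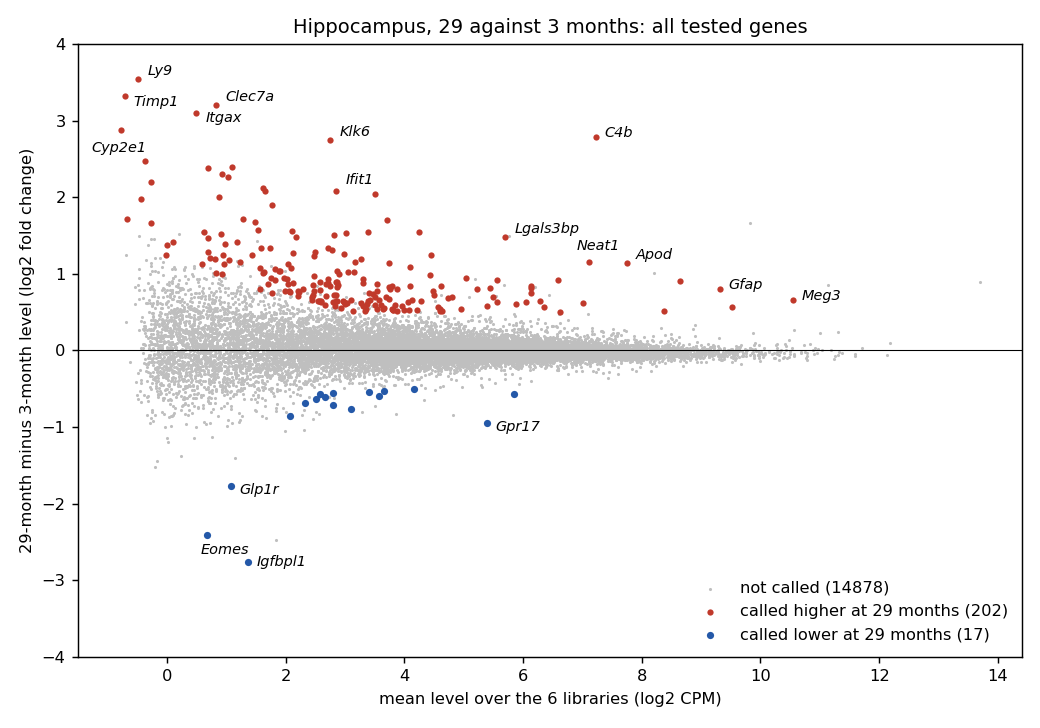
Log2 fold change of 29M against 3M plotted on the mean level of each tested gene (log2 CPM), with the 202 genes called higher in red, the 17 called lower in blue and the rest in grey. The called genes lie mostly above 0, and C4b, Gfap and Meg3 stand out at higher levels while Ly9, Timp1, Itgax and Clec7a have large changes at low levels.

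The largest increases were found in genes of low level. Ly9, a receptor of the SLAM family on lymphocytes and other leukocytes, had 1, 3 and 0 counts at 3M and 19, 14 and 15 counts at 29M, a log2 fold change of 3.55 (SE 0.53, adjusted p = 0.00235). Timp1, an inhibitor of matrix metalloproteinases that astrocytes secrete in reactive states, had 2, 2 and 0 counts at 3M and 11, 12 and 18 counts at 29M (log2 fold change 3.32, SE 0.52, adjusted p = 0.00364). The groups did not overlap in either gene, and both were called without any 1 of the libraries. Next in size came Clec7a (3.21), Itgax (3.10), Gm49339 (2.87), C4b (2.79), Klk6 (2.75), Cyp2e1 (2.47), Sult1c1 (2.39), Cybb (2.38), H2-Q7 (2.3) and H2-Q6 (2.26), each on the log2 scale. DESeq2 did not call Gm49339 (adjusted p = 0.054). Cyp2e1 is an enzyme of xenobiotic and ethanol oxidation, and Sult1c1 a sulfotransferase. The neighbouring sulfotransferase gene Sult1c2 stood at 2.12, 2.29 and 3.33 CPM at 3M and at 6.64, 5.80 and 6.10 CPM at 29M, a log2 fold change of 1.28 (SE 0.19, adjusted p = 0.00236). Both genes lie on chromosome 17, Sult1c2 at chr17:53829637-53846339 and Sult1c1 at chr17:53961615-53990674 (GRCm38), and reads of such related genes can be hard to assign.

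Among genes with a mean of at least 50 CPM, the 10 with the smallest adjusted p all rose: C4b, Gfap, Ctss, Neat1, Lgals3bp, Apod, Serpina3n, Vim, Leng8 and Trf. C4b, a complement component, stood at 35.2, 37.0 and 41.5 CPM at 3M and at 254, 247 and 282 CPM at 29M (log2 fold change 2.79, SE 0.06, adjusted p = 1.51e-11). Ctss, a cathepsin of microglial lysosomes that also trims the invariant chain of MHC class II, stood at 50.3, 52.4 and 50.8 CPM at 3M and at 92.9, 92.1 and 85.5 CPM at 29M (log2 fold change 0.82, SE 0.05, adjusted p = 3.43e-06). Both genes kept a wide gap between the ages, with replicates close together. Ctss was the 1 called member of the 33 tested lysosomal genes, whose median was 0.13. Of the 33, 31 lay above 0, where 49.4% of all tested genes did. Every 29M library lay above every 3M library in 17 of them, against 11.9% of all tested genes. With no fold threshold 6 were higher at an adjusted p of at most 0.05, as were 2.32% of all tested genes.

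Most of the tested interferon-stimulated genes rose. Of 52 listed genes, 43 were tested, 27 were called higher (62.8%, against 1.34% of all tested genes), 0 were called lower, and the median log2 fold change was 0.87. All 43 lay above 0, where 49.4% of all tested genes did. Their levels, summed over the list, ran from 279 to 310 CPM at 3M and from 451 to 603 CPM at 29M. In bulk tissue, more cells of a type and more RNA per cell cannot be told apart.

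Ifit1, an antiviral protein that binds foreign RNA, stood at 3.31, 2.23 and 3.06 CPM at 3M and at 13.4, 4.85 and 16.6 CPM at 29M (log2 fold change 2.08, SE 0.36, adjusted p = 0.00587). Bst2, which tethers budding virus to the cell, stood at 5.09, 4.97 and 6.02 CPM at 3M and at 22, 10.5 and 14.0 CPM at 29M (log2 fold change 1.55, SE 0.23, adjusted p = 0.00234). The 29M libraries lay above the 3M libraries in both genes, and replicate 2 was the lowest of the 3. Oasl2, a member of the oligoadenylate synthetase family, stood at 3.48, 3.47 and 4.23 CPM at 3M and at 11.2, 7.70 and 12.4 CPM at 29M, a rise of 1.51 (SE 0.18, adjusted p = 0.000624). Lgals3bp, a secreted galectin-binding glycoprotein, stood at 22, 27.0 and 33.4 CPM at 3M and at 84.8, 70.2 and 74.9 CPM at 29M (log2 fold change 1.48, SE 0.11, adjusted p = 1.43e-05). Usp18, a brake on interferon receptor signalling, rose by 2.12, Rtp4 by 2.09 and Irgm2, an interferon-inducible GTPase, by 1.32 on the log2 scale. Each of these 7 genes was called in every fit that left out 1 library.

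Of the transcription factors of the pathway, Irf7 rose from 2.04, 1.96 and 2.61 CPM at 3M to 8.07, 4.38 and 6.76 CPM at 29M (log2 fold change 1.56, SE 0.24, adjusted p = 0.00274). Irf9, a DNA-binding interferon regulatory factor, rose by 0.74 (adjusted p = 0.00797), but its adjusted p was 0.0512 without 29M replicate 1 and 0.0642 without 29M replicate 3. Irf8, a factor of the myeloid lineage, rose from 4.92, 4.45 and 5.13 CPM to 7.65, 9.13 and 9.16 CPM (log2 fold change 0.85, adjusted p = 0.00445), and here replicate 2 was not the lowest. The sensors of viral RNA Ddx58 and Ifih1 rose by 1.02 and 1.03. The log2 fold changes of Isg15 and Cxcl10 were 1.11 and 1.52, and neither was called (adjusted p = 0.0757 and 0.122).

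The 3 aged mice differed in these genes. In 26 of the 27 called interferon-stimulated genes, 29M replicate 2 was the lowest of the 29M libraries (96.3%). The same held for 8 of the 11 called genes of the MHC class I list, for 37.8% of the called genes in neither list and for 34.8% of all tested genes. The median over the list of each library's log2 ratio to the 3M mean was 0.90 in replicate 1, 0.50 in replicate 2 and 0.91 in replicate 3 at 29M, and between -0.02 and 0.08 in the 3M libraries. The count of called members was 33 without 29M replicate 2 and 16 without either 29M replicate 1 or 29M replicate 3. Replicate 2 is also the library high in Gm42418, and the part of that in these values was not tested. The 3M library high in Gm42418 had a median ratio of -0.01. With both of these libraries left out, 32 members were called.

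**Figure D3:**
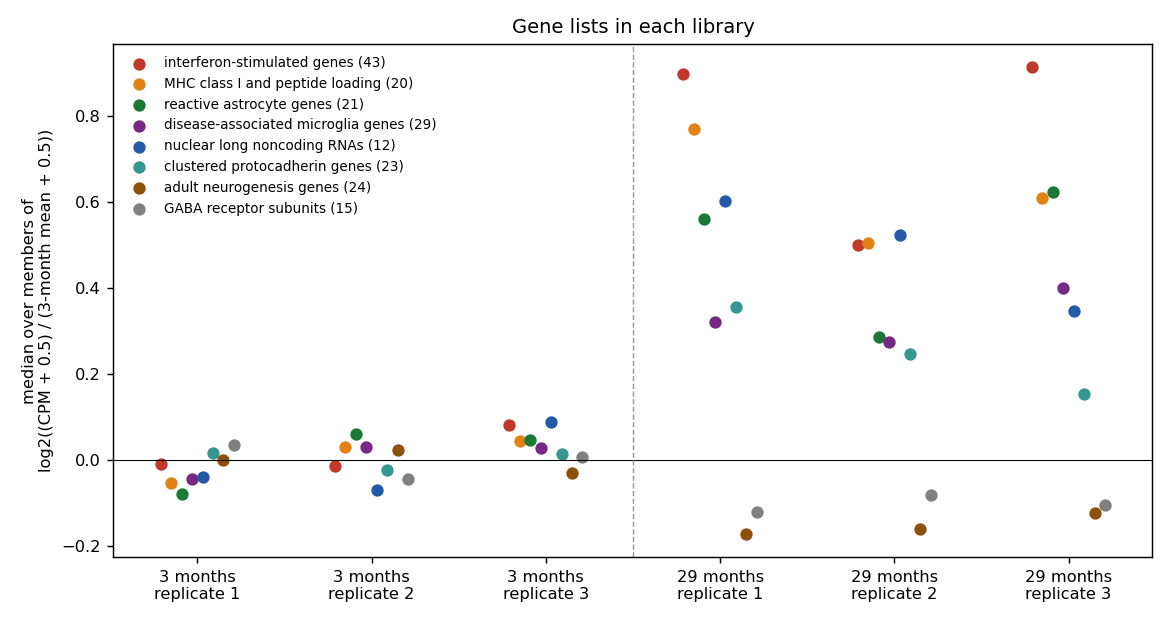
Median over the tested members of 8 gene lists of the log2 ratio of each library to the 3M mean, after adding 0.5 CPM, with the number tested in brackets. Interferon-stimulated genes stand at 0.90, 0.50 and 0.91 in the 3 libraries of 29M, and the nuclear long noncoding RNAs and clustered protocadherin genes are lowest in replicate 3.

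Interferon target genes often carry the interferon-stimulated response element, whose core was searched here on both strands as 2 copies of GAAA separated by any 2 bases, in windows of 250 bases before to 50 after the annotated start of transcription (RefSeq, GRCm38.p6). The core was found in the windows of 3.58% of the 11411 tested genes with a window. It was found in 13 of the 21 called interferon-stimulated genes with a window (61.9%), in 20 of the 34 tested ones (58.8%), in 2 of 9 called genes of the MHC class I list, and in 8 of 123 called higher genes outside both lists (6.50%). The stretches of 7 called genes that carry a match are shown as examples, chosen with their values known: Ifit1, Ifit3, Irgm2 and Gbp3 of the interferon list, B2m and H2-T23 of the MHC class I list, and Ctss. They are written in the direction of transcription with the core in capitals. A core that lies on the other strand reads as 2 copies of TTTC.
Ifit1, chr19:34640765-34640833, plus strand: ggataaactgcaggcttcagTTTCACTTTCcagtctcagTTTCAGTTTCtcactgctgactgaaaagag
Ifit3, chr19:34583353-34583436, plus strand: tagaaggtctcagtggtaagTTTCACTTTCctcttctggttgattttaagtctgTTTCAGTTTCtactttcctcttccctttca
Irgm2, chr11:58214893-58214942, plus strand: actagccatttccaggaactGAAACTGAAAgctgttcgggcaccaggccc
Gbp3, chr3:142559979-142560034, plus strand: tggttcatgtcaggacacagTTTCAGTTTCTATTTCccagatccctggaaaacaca
B2m, chr2:122147528-122147577, plus strand: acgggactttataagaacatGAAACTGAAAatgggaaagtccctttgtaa
H2-T23, chr17:36032796-36032845, minus strand: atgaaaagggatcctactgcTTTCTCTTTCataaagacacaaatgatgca
Ctss, chr3:95526745-95526794, plus strand: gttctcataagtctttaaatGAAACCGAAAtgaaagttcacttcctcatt
Ifit1 and Ifit3 each hold 2 copies, and in Gbp3 2 matches overlap. Of the 7, Ctss was on neither list. A match is a description of the sequence and does not show that a factor bound there.

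Many genes of MHC class I, which presents peptides to CD8 T cells, rose as well. Of 20 listed genes, all tested, 11 were called higher (55.0%) and 0 lower, with a median of 0.65. The counts were 6 without 29M replicate 3 and 7 without either 29M replicate 1 or 3M replicate 1. H2-D1, a classical heavy chain gene at chr17:35262730-35267499, stood at 31.2, 35.0 and 32.7 CPM at 3M and at 69.9, 49.9 and 66.5 CPM at 29M (log2 fold change 0.91, SE 0.10, adjusted p = 0.000374). H2-K1, the other classical gene, stood at 27.9, 26.8 and 27.1 CPM at 3M and at 53.4, 39.6 and 49.0 CPM at 29M (log2 fold change 0.80, SE 0.09, adjusted p = 0.000447). The groups did not overlap in either. B2m, the light chain of all class I molecules, stood at 56.9, 63.8 and 61.9 CPM at 3M and at 103, 86.5 and 97.5 CPM at 29M (log2 fold change 0.65, SE 0.07, adjusted p = 0.00012).

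The nonclassical genes H2-T23, H2-Q6 and H2-Q7 rose by 0.87, 2.26 and 2.3. H2-Q6 and H2-Q7 are close copies of each other, at chr17:35424850-35430055 and chr17:35439155-35443773, and their reads may have been divided between them. Of the peptide transporter, Tap1 rose by 0.65 and Tap2 by 0.59, but Tap1 was called in 1 of the 6 fits without 1 library and Tap2 in 5. Psmb8, a subunit of the immunoproteasome, rose by 0.87 and Nlrc5, the transactivator of class I genes, by 1.39, each called in 1 of these 6 fits. Psme1 and Psme2, activators of the proteasome, had log2 fold changes of 0.07 and 0.02.

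Of the 8 tested genes of MHC class II, which presents peptides to CD4 T cells, 3 were called higher, and 6 without 29M replicate 2. Cd74, the invariant chain, stood at 6.20, 7.13 and 7.55 CPM at 3M and at 13.9, 10.7 and 13.5 CPM at 29M (log2 fold change 0.88, SE 0.13, adjusted p = 0.00225). H2-Ob rose by 2.20 (adjusted p = 0.00574) from 5, 3 and 3 counts to 17, 16 and 16 counts. H2-Aa rose by 0.88 (adjusted p = 0.0444) and was called in 1 of the 6 fits without 1 library. DESeq2 called 1 gene of this list, Cd74, with an adjusted p of 0.0548 for H2-Ob and of 0.0895 for H2-Aa.

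Microglia genes of the activated and of the resting state lay mostly above 0. Of 29 tested genes of the disease-associated state, which microglia take on around plaques and damaged tissue, 11 were called higher (37.9%) and 0 lower, with a median of 0.34 and 26 of the 29 above 0. With no fold threshold 16 of the 29 were higher at an adjusted p of at most 0.05, as were 2.32% of all tested genes. Clec7a, the receptor for fungal beta-glucan, stood at 0.340, 0.327 and 0.360 CPM at 3M and at 3.45, 2.85 and 3.34 CPM at 29M (log2 fold change 3.21, SE 0.29, adjusted p = 4.42e-05). Itgax, which encodes the integrin CD11c, stood at 0.509, 0.131 and 0.270 CPM at 3M and at 2.52, 2.0 and 3.05 CPM at 29M (log2 fold change 3.10, SE 0.39, adjusted p = 0.000732). The lowest aged library lay several-fold above the highest young one in both genes.

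Lyz2, a lysozyme of myeloid cells, rose from 10.6, 8.25 and 10.6 CPM at 3M to 30.2, 23.6 and 31.0 CPM at 29M (log2 fold change 1.55, SE 0.12, adjusted p = 1.67e-05). Trem2, the lipid-sensing receptor of microglia, rose from 11, 14.1 and 11.6 CPM to 21.7, 20.8 and 23.5 CPM (log2 fold change 0.84, SE 0.10, adjusted p = 0.000527), and its signalling adaptor Tyrobp by 0.81. Cybb, the catalytic subunit of the phagocyte NADPH oxidase, rose by 2.38 (adjusted p = 0.00312), and the late-endosomal glycoproteins Cd68 and Gpnmb by 0.75 and 1.20. Other members of the same state had values near 0: Lpl stood at -0.05, Igf1 at -0.14 and Ctsl at 0.03 on the log2 scale, none of them called. The value of Apoe was 0.27 (adjusted p = 0.00927), under the fold threshold.

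Of the 16 homeostatic microglia genes, 1 was called higher (6.25%), Tmem119, with a log2 fold change of 0.51 (SE 0.11, adjusted p = 0.0183), and it was called in 3 of the 6 fits without 1 library, at 0.40 without 29M replicate 3. The median was 0.33 and 15 of the 16 lay above 0. With no fold threshold 8 of the 16 were higher at an adjusted p of at most 0.05. Cx3cr1, the fractalkine receptor, stood at 56.5, 56.9 and 55.5 CPM at 3M and at 68.6, 75.0 and 73.2 CPM at 29M (log2 fold change 0.36, SE 0.05, adjusted p = 0.00234). P2ry12, the purine receptor of resting microglia, stood at 0.21 (adjusted p = 0.0815), and Aif1, which encodes Iba1, at 0.34 (adjusted p = 0.294).

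Surface receptors of phagocytes followed, with 8 of 24 tested genes called higher (33.3%), 24 of 24 above 0 and a median of 0.68. The count was 4 without either 29M replicate 1 or 29M replicate 3. Itgb2, the shared beta chain of leukocyte integrins, stood at 4.84, 5.69 and 4.32 CPM at 3M and at 9.84, 10.3 and 9.95 CPM at 29M (log2 fold change 1.0, SE 0.13, adjusted p = 0.00112). Tlr2, a receptor for bacterial lipoproteins, rose by 1.24 (adjusted p = 0.00499), Ly86 by 0.64 (adjusted p = 0.0054) and the IgG receptor Fcgr3 by 0.55 (adjusted p = 0.00471). Of 18 tested chemokine and cytokine genes, 1 was called: Il33, an alarmin made by oligodendrocytes and astrocytes, rose by 0.57 (adjusted p = 0.00528) and stood at 0.44 without 3M replicate 1. Of 5 tested perivascular macrophage genes 0 were called by edgeR or DESeq2, 0 had an unadjusted p under 0.05, and the median was 0.48.

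Few lymphocyte genes were measurable. Of 31 listed genes 4 were tested, and Ly9 and Ighm were called. Ighm, the constant region of immunoglobulin M, stood at 12.6, 13.6 and 12.2 CPM at 3M and at 23.4, 47.7 and 21.7 CPM at 29M (log2 fold change 1.24, SE 0.24, adjusted p = 0.0125), and its adjusted p was 0.0628 without 3M replicate 3. 29M replicate 2 lay well above the others, and without it the log2 fold change was 0.81 (adjusted p = 0.000729). Of the 4 tested genes 1 was called without 3M replicate 3. The immunoglobulin light chain Igkc, which was not tested, stood at 1.85, 7.32 and 0.654 CPM in the 29M libraries and at most 0.539 CPM in those of 3M. Cd8a and Cd8b1, the coreceptor of cytotoxic T cells, had 0 counts in each 3M library and 3 to 9 counts in each 29M library, also untested. Cd3e, a chain of the T cell receptor complex, lay at or below 0.0951 CPM in all 6 libraries.

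Of the genes listed for astrocytes, some of the reactive state were called and those of the resting state were not. Bulk tissue does not show which cells held these RNAs. Of 21 tested reactive astrocyte genes, 9 were called higher (42.9%) and 0 lower, with a median of 0.54, and 7 to 11 were called without 1 library. Of the 21, 20 lay above 0, and the changes ran from -0.03 to 3.32 on the log2 scale. Gfap, the astrocytic intermediate filament, stood at 474, 442 and 481 CPM at 3M and at 793, 834 and 803 CPM at 29M (log2 fold change 0.80, SE 0.04, adjusted p = 7.42e-07). Vim, a further filament protein, stood at 48.7, 54.1 and 54.5 CPM at 3M and at 83.8, 84.0 and 96.9 CPM at 29M (log2 fold change 0.75, SE 0.07, adjusted p = 4.42e-05). Serpina3n, a secreted protease inhibitor, stood at 55.4, 50.5 and 45.2 CPM at 3M and at 82.9, 93.9 and 94.8 CPM at 29M (log2 fold change 0.84, SE 0.07, adjusted p = 3.68e-05). In these 3 genes the groups were far apart and the replicates close together. S100a6, Osmr and Aspg rose by 0.66, 0.89 and 1.34.

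Of the 16 homeostatic astrocyte genes, 0 were called by edgeR or by DESeq2, 3 had an unadjusted p under 0.05, and the median was 0.02. The glutamate transporter Slc1a2 had a log2 fold change of 0.03 (SE 0.04) and the water channel Aqp4 of 0.07 (SE 0.04). S100b, a calcium-binding protein, stood at 93.2, 99.1 and 89.8 CPM at 3M and at 122, 128 and 120.5 CPM at 29M, without overlap, and its value of 0.39 (adjusted p = 0.00041) was under the fold threshold.

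**Figure D4:**
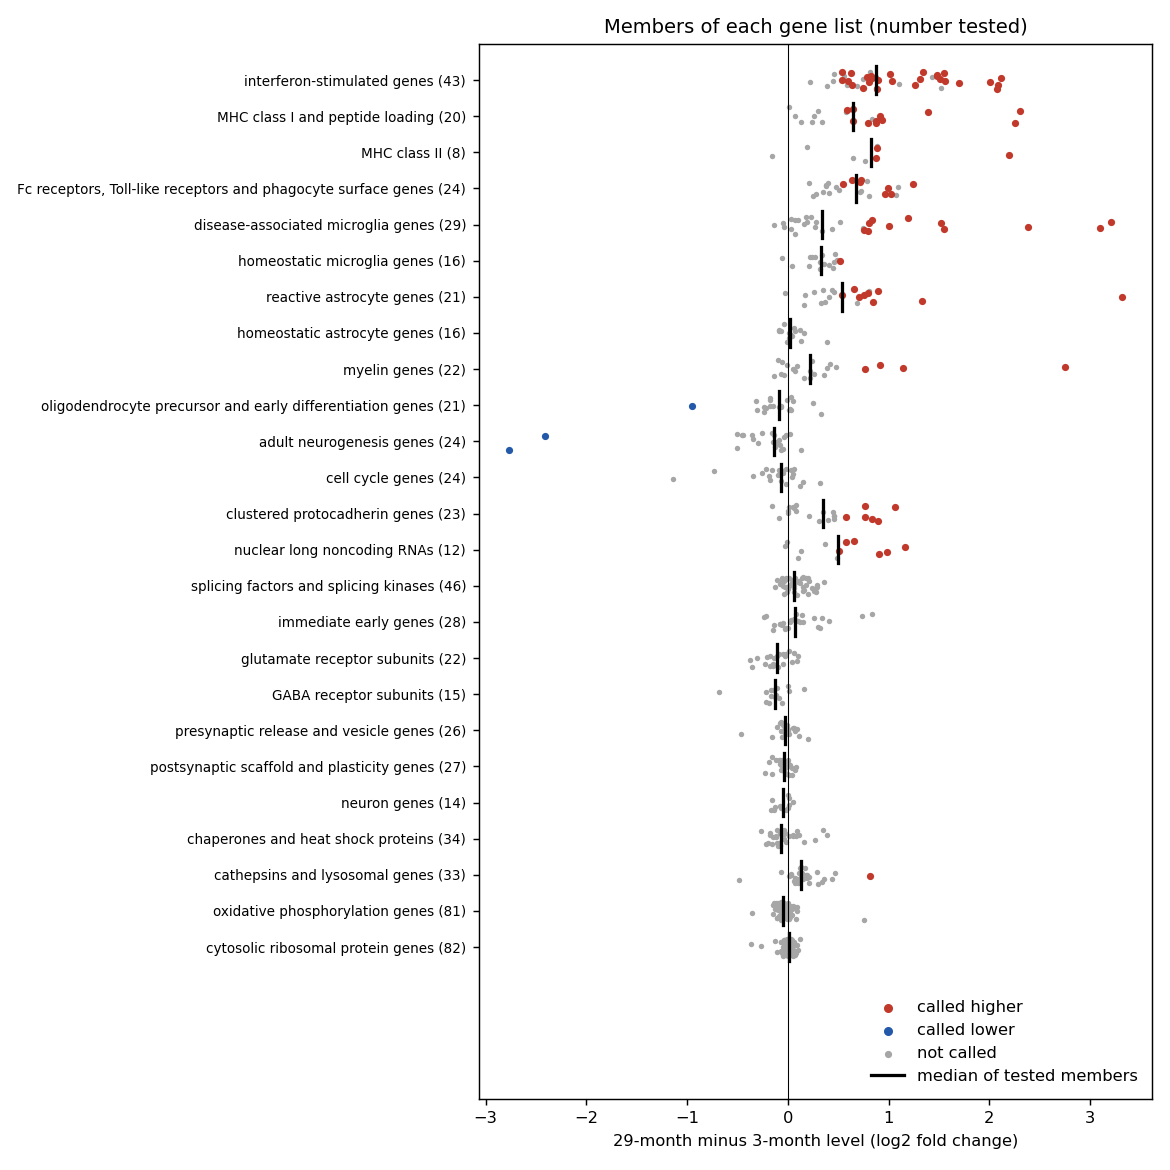
Log2 fold change of 29M against 3M for each tested member of 25 gene lists, with called members in red or blue, the others in grey and a black bar at the median. The interferon, MHC, phagocyte and reactive astrocyte lists lie to the right of 0, and the synaptic, ribosomal and oxidative phosphorylation lists are centred close to 0.

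In the oligodendrocyte lineage, 4 of 22 tested myelin genes were called higher (18.2%) and 0 lower, and 7 were called without 3M replicate 2. The median was 0.22 and 16 of the 22 lay above 0. With no fold threshold 7 were higher at an adjusted p of at most 0.05, as were 2.32% of all tested genes. Klk6, a serine protease of mature oligodendrocytes, stood at 1.27, 1.83 and 2.16 CPM at 3M and at 10.3, 10.7 and 14.2 CPM at 29M (log2 fold change 2.75, SE 0.20, adjusted p = 8.34e-06). Apod, a lipid carrier, stood at 114, 150 and 139 CPM at 3M and at 284, 270 and 335 CPM at 29M (log2 fold change 1.14, SE 0.09, adjusted p = 1.67e-05). Trf, the iron carrier transferrin, rose by 0.92 (adjusted p = 6.87e-05) and Hapln2, a linker protein at nodes of Ranvier, by 0.77 (adjusted p = 0.000421). All 4 were called in each fit that left out 1 library. The structural myelin genes Mbp and Mog had log2 fold changes of 0.24 and -0.06, and neither was called. Mog stood at 60.7, 78.0 and 61.0 CPM at 3M and at 58.6, 65.0 and 68.7 CPM at 29M, where the groups overlapped.

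Gpr17, a receptor of precursors committed to become oligodendrocytes, stood at 56.7, 55.2 and 53.5 CPM at 3M and at 24.5, 30.5 and 30.4 CPM at 29M (log2 fold change -0.95, SE 0.08, adjusted p = 2.79e-05). It was the 1 called member of the 21 tested precursor genes (4.76%, against 0.113% of all tested genes) and was called in each fit without 1 library. Pdgfra, which marks the precursors themselves, had a log2 fold change of 0.03 (SE 0.05) and Cspg4 of -0.18 (adjusted p = 0.332). Tnr, an extracellular matrix protein of the lineage, stood at -0.31 (adjusted p = 0.0057), under the fold threshold.

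**Figure D5:**
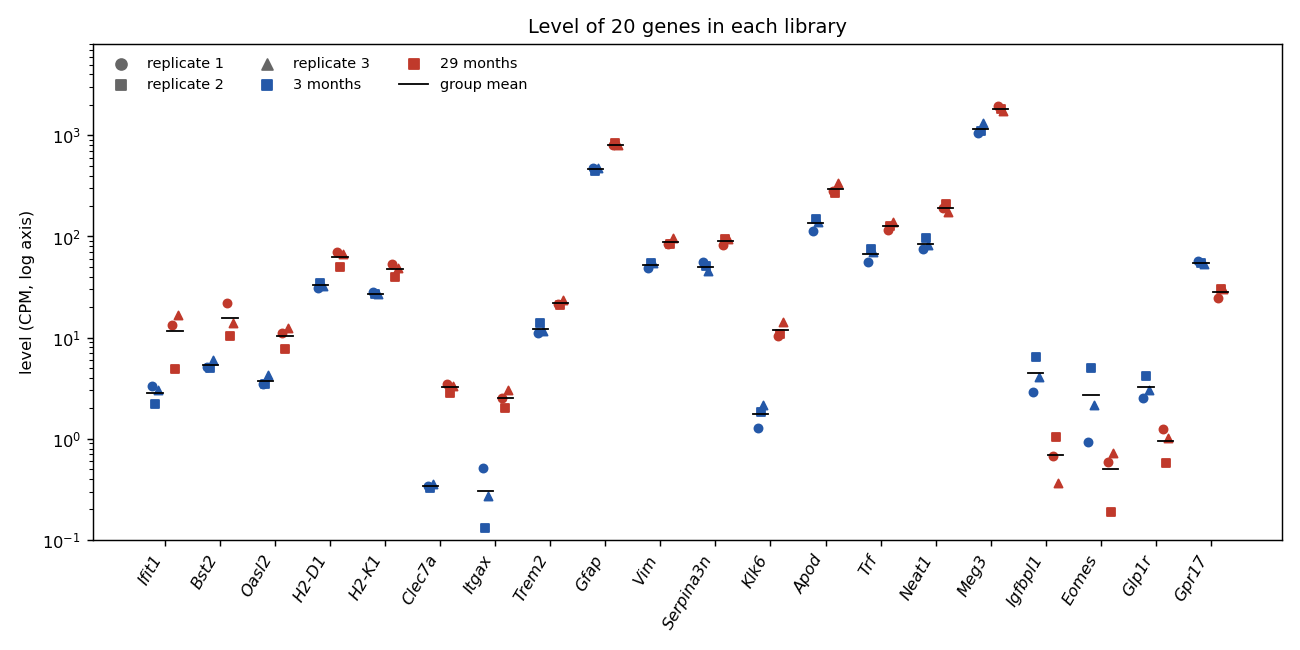
Level in CPM (log axis) of 20 genes in each library, 3M in blue and 29M in red, with the marker shape giving the replicate and a bar at the group mean. The groups are apart in each gene, and in Ifit1, Bst2, Oasl2, H2-D1 and H2-K1 replicate 2 is the lowest of the 29M libraries.

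Genes of adult neurogenesis, the production of granule neurons in the dentate gyrus, lay below 0 in 22 of 24 cases, with a median of -0.14. Of all tested genes 49.4% lay above 0. Of the 24, 2 were called lower (8.33%, against 0.113% of all tested genes). In 9 of the 24 every 29M library lay below every 3M library, against 10.5% of all tested genes. With no fold threshold 4 were lower at an adjusted p of at most 0.05, as were 0.662% of all tested genes. With 3M replicate 1 left out 3 were called, and with any other library left out 1, Igfbpl1. Igfbpl1, which is expressed in young neurons, stood at 2.89, 6.48 and 4.05 CPM at 3M and at 0.673, 1.05 and 0.363 CPM at 29M (log2 fold change -2.76, SE 0.39, adjusted p = 0.00181). The groups did not overlap, and it was called in each fit without 1 library. Eomes, a transcription factor of intermediate progenitors, stood at 0.934, 4.97 and 2.16 CPM at 3M and at 0.589, 0.190 and 0.727 CPM at 29M (log2 fold change -2.41, SE 0.59, adjusted p = 0.0438). The 3M libraries were spread widely for Eomes, and it was called in 1 of the 6 fits, with an adjusted p of 0.144 and a log2 fold change of -1.53 without 3M replicate 2. Dcx, the microtubule protein of migrating neurons, stood at 20.2, 23.9 and 21.5 CPM at 3M and at 17.5, 16.6 and 17.4 CPM at 29M (log2 fold change -0.35, adjusted p = 0.0368), under the fold threshold. Of 24 tested cell cycle genes, 0 were called by edgeR or DESeq2 and 3 had an unadjusted p under 0.05. Top2a, a topoisomerase of dividing cells, stood at -1.14 (adjusted p = 0.0734), and Mki67 at -0.21.

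Other lower genes were mostly receptors and adhesion proteins. Glp1r, the receptor of glucagon-like peptide 1, stood at 2.55, 4.19 and 3.06 CPM at 3M and at 1.26, 0.571 and 1.02 CPM at 29M (log2 fold change -1.77, SE 0.30, adjusted p = 0.00559). It was called in each fit without 1 library, and the groups did not overlap. Others were Gm15427 (-0.86), the matrix protein gene Tnc (-0.71), Rnf122 (-0.69), Sncaip (-0.63), the cadherin gene Cdh6 (-0.60), the glycine receptor gene Glra2 (-0.59) and Gpr165 (-0.57). These 7 were called in 0 to 2 of the 6 fits without 1 library, and DESeq2 called 1 of them, Glra2. Glp1r was the 1 called member of the 21 tested hippocampal subfield markers (4.76%, against 0.113% of all tested genes), whose median was -0.01. With no fold threshold 3 of the 21 were lower and 0 higher at an adjusted p of at most 0.05. Of all tested genes 0.662% were lower by that rule. The CA1 marker Wfs1 stood at -0.28 (adjusted p = 0.0124), under the fold threshold, and Fibcd1 at 0.01.

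Neuronal and synaptic genes had medians slightly below 0. Of 14 tested neuron genes, 22 glutamate receptor subunits, 15 GABA receptor subunits, 26 presynaptic and 27 postsynaptic genes, 0 were called by edgeR or by DESeq2. Their unadjusted p was under 0.05 in 4, 12, 8, 3 and 6 of them, against 17.3% of all tested genes. In the same order, 9, 17, 13, 18 and 19 of them lay below 0, while 49.4% of all tested genes lay above 0. Every 29M library lay below every 3M library in 4, 7, 7, 3 and 7 of them, against 10.5% of all tested genes. The medians were -0.05, -0.11, -0.13, -0.03 and -0.04 on the log2 scale. Rbfox3, which encodes NeuN, stood at 265, 257 and 251 CPM at 3M and at 255, 248 and 277 CPM at 29M (log2 fold change 0.01, SE 0.04). The groups overlapped. Grin3a, a modulatory NMDA receptor subunit, stood at 71.6, 67.2 and 69.8 CPM at 3M and at 52.6, 55.4 and 54.7 CPM at 29M, a log2 fold change of -0.36 (SE 0.05, adjusted p = 0.00228). Slc17a6, a vesicular glutamate transporter, stood at -0.46 (adjusted p = 0.014) and Dlg2, a postsynaptic scaffold, at -0.16 (adjusted p = 0.0272). These passed the adjusted p and not the fold threshold. Of all tested genes, 0.662% were lower at an adjusted p of at most 0.05 whatever the size of the change. With 29M replicate 3 left out 1 presynaptic gene was called lower.

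Immediate early genes, which neurons raise after firing, had a median of 0.07 over 28 tested genes. None was called by edgeR or DESeq2 and 4 had an unadjusted p under 0.05. Egr1 stood at 88.4, 112 and 87.9 CPM at 3M and at 84.4, 95.1 and 129 CPM at 29M (log2 fold change 0.10, SE 0.13), and Egr2, Egr3 and Egr4 had values of -0.22, -0.15 and 0.14. The serotonin receptor gene Htr2c stood at 0.02 (SE 0.10), App at 0.03 (SE 0.04), Bace1 at -0.06 (SE 0.04), Sptbn1 at -0.02 (SE 0.04) and Slc7a2 at 0.08 (SE 0.08). Cox8b, a subunit of cytochrome oxidase, stood at 2.72, 4.52 and 2.88 CPM at 3M and at 5.55, 5.80 and 6.10 CPM at 29M, and was not called (log2 fold change 0.75, adjusted p = 0.0586).

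Some long noncoding RNAs kept in the nucleus rose. Of 12 tested genes of this list, 6 were called higher and 0 lower, with a median of 0.50 and 2 members below 0. Neat1, the scaffold of paraspeckles, stood at 75.3, 97.1 and 82.9 CPM at 3M and at 189, 208 and 175 CPM at 29M (log2 fold change 1.16, SE 0.08, adjusted p = 4.93e-06). Malat1, its neighbour on chromosome 19 and a component of nuclear speckles, stood at 227, 236 and 374 CPM at 3M and at 517, 617 and 429 CPM at 29M (log2 fold change 0.90, SE 0.16, adjusted p = 0.00729). The groups were close for Malat1, whose adjusted p was 0.0504 without 29M replicate 1 and 0.0846 in DESeq2. Meg3, an imprinted RNA of chromosome 12, stood at 1052, 1098 and 1324 CPM at 3M and at 1952, 1804 and 1729 CPM at 29M (log2 fold change 0.66, SE 0.07, adjusted p = 0.000378).

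Snhg11 rose by 0.57, Miat by 0.51 and the pseudogene Pisd-ps1 by 0.98. Miat lay at 0.45 to 0.49 without 3M replicate 1, 3M replicate 2 or 29M replicate 1. In all 6 called members the lowest of the 29M libraries was replicate 3, against 33.4% of all tested genes. At 3M, replicate 3 was the highest library for Malat1, Meg3, Snhg11 and Miat. Leng8, a protein-coding gene of nuclear mRNA export, rose as well (93.9 CPM at the lowest 3M library and 145.5 CPM at the lowest 29M library, log2 fold change 0.62, adjusted p = 4.42e-05), and it too was lowest in 29M replicate 3. Among the other members Gas5 stood at 0.10 and Rian at -0.03.

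Of 46 tested splicing factors and splicing kinases, 0 were called by edgeR or DESeq2, 20 had an unadjusted p under 0.05, against 17.3% of all tested genes, and the median was 0.07. With no fold threshold 7 were higher at an adjusted p of at most 0.05, as were 2.32% of all tested genes, and 0 were lower. Of the 46, 32 lay above 0, where 49.4% of all tested genes did. Every 29M library lay above every 3M library in 16 of them, against 11.9% of all tested genes. Snrnp70, a protein of the U1 particle, stood at 124, 129 and 132 CPM at 3M and at 162, 155 and 154 CPM at 29M (log2 fold change 0.29, SE 0.04, adjusted p = 0.00112), and Srrm2, the core protein of nuclear speckles, at 0.28 (adjusted p = 0.00496).

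Clustered protocadherins, adhesion proteins that give neurons an identity of their own, moved in part. Of 23 tested genes 6 were called higher (26.1%) and 0 lower, with a median of 0.35, and 3 were called where any 1 of 3M replicate 1, 3M replicate 2 and 29M replicate 1 was left out. With both libraries high in Gm42418 left out 3 were called. Pcdhb9 stood at 16.8, 17.5 and 18.7 CPM at 3M and at 32.3, 32.4 and 30.2 CPM at 29M (log2 fold change 0.84, SE 0.07, adjusted p = 3.36e-05). Pcdhb2 stood at 5.26, 4.97 and 5.13 CPM at 3M and at 9.93, 9.80 and 8.86 CPM at 29M (log2 fold change 0.89, SE 0.12, adjusted p = 0.00164). The groups were well apart in both. Pcdhb3, Pcdhb5, Pcdhb6 and Pcdhb8 rose by 0.77, 0.57, 0.77 and 1.06, with Pcdhb5, Pcdhb6 and Pcdhb8 called in 2, 0 and 2 of the 6 fits without 1 library. DESeq2 called 4 of the 23. The 6 genes lie in 1 stretch of the beta cluster, from the start of Pcdhb2 at base 37294812 of chromosome 18 to the end of Pcdhb9 at base 37403909 (GRCm38). Pcdhb4 and Pcdhb7, of the same numbers, were not called, at 0.45 and 0.35. Members numbered 15 to 22 had values between -0.16 and 0.21. These genes are single-exon copies of one another, and their reads can be hard to assign.

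Several lists of general cell functions did not move beyond the fold threshold. Of 82 tested cytosolic ribosomal protein genes, 81 oxidative phosphorylation genes, 33 proteasome genes, 34 chaperones, 30 antioxidant genes and 27 genes of cholesterol synthesis and uptake, 0 were called by edgeR or DESeq2, and the medians lay between -0.07 and 0.06. Their unadjusted p was under 0.05 in 2, 12, 3, 14, 7 and 5 of them, against 17.3% of all tested genes. In the same order, 28, 65, 28, 24, 15 and 8 of them lay below 0, while 49.4% of all tested genes lay above 0. Every 29M library lay below every 3M library in 4, 13, 6, 13, 4 and 1 of them, against 10.5% of all tested genes. With no fold threshold 4 chaperones were lower and 0 higher at an adjusted p of at most 0.05. Of all tested genes 0.662% were lower by that rule. Hsph1, a heat shock chaperone, stood at 338, 298 and 296 CPM at 3M and at 259, 263 and 253 CPM at 29M (log2 fold change -0.27, SE 0.05, adjusted p = 0.00814), below without overlap. Prdx6, a peroxiredoxin, stood at 0.23 (adjusted p = 0.00535). In the clock, Per3 stood at 35.3, 39.3 and 40.2 CPM at 3M and at 50, 48.4 and 51.0 CPM at 29M (log2 fold change 0.38, SE 0.06, adjusted p = 0.00528) and Bhlhe41 at 0.34 (adjusted p = 0.0101), while 0 of 22 clock genes was called by edgeR or DESeq2 and 7 had an unadjusted p under 0.05. With 3M replicate 2 left out 1 clock gene and 1 oxidative phosphorylation gene were called higher.

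Some further lists held 1 to 3 called genes. Of 16 glucocorticoid response genes, Plin4, a lipid droplet protein, rose by 1.24 (adjusted p = 0.00236), Hif3a by 1.29 (adjusted p = 0.0201) and Sult1a1 by 0.64 (adjusted p = 0.0405). DESeq2 gave Sult1a1 an adjusted p of 0.184. Hif3a was spread over 5.38, 6.75 and 11.8 CPM at 29M and its log2 fold change was 0.87 (adjusted p = 0.0849) without 29M replicate 3. Of the 3 genes 1 was called where 3M replicate 1, 3M replicate 3 or 29M replicate 3 was left out. Of 38 collagen and basement membrane genes, Col6a1 rose by 1.09 (adjusted p = 0.0104) and Col27a1 by 0.72 (adjusted p = 0.0134). DESeq2 called neither, with adjusted p of 0.0806 and 0.0952. Col6a1 was highest in 29M replicate 3, at 30.8 CPM, and its adjusted p was 0.0527 without that library, where 0 collagen genes were called. Where 3M replicate 2 or 29M replicate 1 was left out 1 was called. The meningeal and fibroblast genes, which can also carry collagens, had a median of 0.24 and summed to 763 to 1103 CPM at 3M and to 1118, 778 and 1285 CPM at 29M. By edgeR or DESeq2 0 of them were called and 1 had an unadjusted p under 0.05, but 4 were called without 29M replicate 2. Spag6, a protein of the axoneme of motile cilia, rose from 1.36, 1.05 and 1.62 CPM to 5.21, 4.09 and 3.42 CPM (log2 fold change 1.67, SE 0.25, adjusted p = 0.00236), while the 16 genes of its list had a median of -0.14.

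Red cell transcripts differed between the aged mice. Hba-a1, an alpha globin, stood at 20.6, 25.5 and 20.8 CPM at 3M and at 24.8, 49.5 and 55.7 CPM at 29M (log2 fold change 0.95, SE 0.21, adjusted p = 0.0307), with 29M replicate 1 inside the range of the 3M libraries. Alas2, an enzyme of haem synthesis, rose by 0.85 (adjusted p = 0.0478). Of the 5 tested genes of this list 5 were called without 29M replicate 1 and 1 without 3M replicate 2, and 0 with any other library left out. DESeq2 called 0 of the 5, with an adjusted p of 0.23 for Hba-a1 and of 0.0633 for Alas2.

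The 24M mice were compared with their own 3M group in single-end libraries, so the 2 contrasts share no samples, but age and library type vary together. Of the 202 genes higher at 29M, 199 were tested at 24M and 198 of these had a log2 fold change above 0 there. All 17 lower genes were below 0 at 24M. The share of all genes tested at 24M on either side of 0 was not counted, so these counts stand without a background. Of the interferon-stimulated genes, 15 of 43 were called higher at 24M with a median of 0.52, where 1.34% of all 15683 genes tested were called higher. Of the MHC class I list, 1 of 20 was called at 24M with a median of 0.28, and of the nuclear long noncoding RNAs 2 of 12 with a median of 0.28. The disease-associated microglia genes gave 10 of 32 and a median of 0.30, the reactive astrocyte genes 5 of 25 and 0.42, and the clustered protocadherins 8 of 24 and 0.36. Other lists were lower at 24M, where 0.638% of all tested genes were called lower. Of the immediate early genes 8 of 28 were called lower there, with a median of -0.40, and 0 at 29M. Egr1 stood at -0.94 at 24M (adjusted p = 0.0272), and its 29M effect was higher by 1.04 on the log2 scale (adjusted p of the difference = 0.392). The adult neurogenesis genes gave 7 of 25 called lower at 24M with a median of -0.27, and the neocortex genes 3 of 12 with a median of -0.37. The striatum genes gave 0 of 12 and -0.67, the hypothalamus genes 2 of 6 and -0.94, and the thalamus and habenula genes 0 of 11 and -0.09. At 29M the medians of these regional lists, in the order given, were -0.07, -0.06, -0.17 and -0.08. The part of neighbouring tissue in the 24M values was not tested. Gpr17 stood at -1.0 at 24M and Igfbpl1 at -2.07, and both were called there.

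The effects at 29M and 24M were compared gene by gene over 16055 genes. By edgeR 0 of them differed, with a smallest adjusted p of 0.392 and 1674 genes at an unadjusted p under 0.05. By DESeq2 0 differed as well, with 1530 genes at an unadjusted p under 0.05. For H2-T23 the 29M effect was larger by 0.79 on the log2 scale (adjusted p = 0.406), for Irgm2 by 1.21 (adjusted p = 0.462), for Timp1 by 2.75 (adjusted p = 0.392) and for Malat1 by 0.58 (adjusted p = 0.60). At this number of samples no difference between the ages was detectable in these genes or in Egr1.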

How the data were processed

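The deposited files hold raw counts per gene, 1 file for each library. The authors sequenced TruSeq libraries of polyadenylated RNA, mapped the reads with STAR 2.3.0 to GRCm38.p2, counted them with HTSeq and tested them with DESeq2. The annotation release and the strand setting are not given in the sources used here, and the kit does not mark strand, so overlapping antisense genes cannot be told apart. Reads on no gene, ambiguous or not unique (23.94% to 29.63% of each library) were left out of library sizes. Of 38355 identifiers, 36602 were named from GENCODE M21 (GRCm38), whose coordinates are printed.

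Levels (CPM) are counts scaled to the TMM-adjusted library size. Genes passing edgeR's filter (minimum count 10) were tested with edgeR 4.0.16 (quasi-likelihood, Benjamini-Hochberg adjustment) on the 6 libraries, in R 4.3.3. DESeq2 1.42.0, its size factors, other filters, the replicate block, no fold threshold, the pituitary list taken out, all 4 groups in 1 fit and each library left out were alternatives, and leaving out 3M replicate 1 with 29M replicate 2 was chosen after seeing the data. The 29M and 24M effects were compared in 1 fit of the 4 groups, with 24M replicates 1 and 4, which differed by less than the sampling noise, counted as 1 sample by their rounded mean. The steps were tested on simulated data. The depth sets the precision: a gene of a few counts a library has a wide error.

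The members and lists were chosen with earlier results of these data known, so lists are described by counts and medians with no set test. Genes were named by rule: the 12 largest increases and decreases without overlap between groups, the 10 smallest adjusted p among genes of at least 50 CPM, up to 4 called members of each list (2 where none was called), genes that the study names, and sex-linked and pituitary genes as checks. Genes named beyond this (such as Gbp3, Cx3cr1, Dcx, Igkc, Cd8a and members at the ends of a list) were chosen after their values were seen. A few genes are not reported here.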

Additional observations from a re-analysis of the deposited data

Results flagged for a closer look

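Signals outside the tested genes appeared in single 29M libraries. Gh, Prl and Cga, hormone genes of the anterior pituitary, reached 344, 8.50 and 7.15 CPM in 29M replicate 1. They failed the filter on low counts and were not tested. In 29M replicate 2, the immunoglobulin light chain genes Igkc and Igkv1-117 reached 7.32 and 6.75 CPM, against at most 0.539 and 0.18 CPM at 3M, and Ighm was also highest in that library. The share of reads on no annotated gene was 15.87% in 29M replicate 2, above the highest 3M library at 12.82%. Groups of 3 libraries are too small for a test of single libraries as outliers.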

How the results depend on the processing

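Of the counts of called genes, those under no filter on low counts moved to 368 higher and 73 lower, those with no fold threshold to 351 and 100 (159 among list members), and those with all 4 groups in 1 fit to 83 and 3 (45 among list members, against 105). Without 1 library they ran from 113 to 207 higher, 7 to 27 lower and 75 to 117 list members. DESeq2 called 136 and 14. The cause of these moves was not tested. The replicate numbers share only a number: the correlations of same-numbered libraries' deviations were -0.069, -0.064 and 0.097, and with the replicate number as a block 203 genes were higher and 22 lower, and 188 of the 202 higher genes were called again. Leaving out 3M replicate 1 with 29M replicate 2, chosen after seeing the data, gave 169 and 15. Among the named genes, 46 called ones fell below the threshold in at least 1 setting and 26 uncalled ones passed it. The difference between ages called 0 genes under each of its alternatives. Uncalled values near 0 changed sign without 1 library: Rbfox3 (-0.037 to 0.046, with -0.0056 without 3M replicate 3), Egr2 (-0.47 to 0.13), Egr1 (-0.10 to 0.22) and Htr2c (-0.093 to 0.12, with -0.065 without 29M replicate 2). Htr2c was also at -0.17 without both libraries high in Gm42418.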

Other observations

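Apart from Cd8a and Cd8b1, Mmp3 and Zfp419 had 0 counts in each 3M library and at least 3 in each 29M library. Mmp3, a secreted matrix metalloproteinase, had 6, 5 and 11 counts at 29M, and Zfp419, a zinc finger gene, had 7, 5 and 5. Both were outside the filter and were not tested.

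Further lower genes were Nrep (-0.57), Cbx8 (-0.55), Hs3st2 (-0.54), Prom1 (-0.53) and Gnb4 (-0.51), each on the log2 scale. Among 27 brain endothelial and pericyte genes, 26 interneuron and neuropeptide genes and 30 DNA methylation and chromatin enzymes, 0 were called by edgeR or DESeq2, and 7, 6 and 3 had an unadjusted p under 0.05. Their medians were -0.04, -0.07 and -0.02. The 12 neocortex genes had a median of -0.07 and the 11 thalamus and habenula genes of -0.08, with 0 called by edgeR or DESeq2 and 1 and 4 at an unadjusted p under 0.05. Of the thalamus and habenula genes, 2 were called lower without 3M replicate 1 and 1 higher without 29M replicate 3.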
